A study of Rattus norvegicus with 33 samples.

Results

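The genes that copy the chromosomes and then pull them apart were followed in soleus, a slow-twitch muscle of the calf, of female Wistar rats. The list held 40 cell division genes, of which 13 act in DNA replication and 27 in mitosis. A gene was analysed when a row of the deposited array table carried its symbol and no other, and the brightest such row over the 33 arrays stood for it. By that rule 34 of the 40 genes were analysed out of 14506 genes in the table, 11 of the 13 replication genes and 23 of the 27 mitosis genes. Mcm3, Mcm4, Cenpe, Cenpf, Mki67 and Ncapg were not analysed here.

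A cell that is going to divide first loads the MCM helicase onto its origins of replication, a step that needs Cdc6. Cyclin E (Ccne1, Ccne2) with its kinase and the helicase partner Cdc45 then start replication. Pcna is the clamp that holds the polymerase on the template, and Rrm1, Rrm2 (the subunits of ribonucleotide reductase) and Tyms (thymidylate synthase) make deoxynucleotides. After replication, Cdk1 with cyclins A and B (Ccna2, Ccnb1, Ccnb2) drives mitosis, the kinesins and kinetochore proteins attach and move the chromosomes, and Cdc20 and Ube2c help the anaphase-promoting complex to end it. The E2F factors turn on replication genes in G1 and S phase, and most mitosis genes are turned on later, through CCAAT boxes and a short element called the cell cycle homology region. Nuclei of mature muscle fibers do not divide, so that in muscle these transcripts are known from the mononuclear cells between the fibers, such as satellite cells, macrophages, fibroblasts and endothelial cells.

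In the first experiment, rats of 22 to 23 weeks of age underwent gastrocnemius ablation (GA), in which the gastrocnemius of the left leg was cut free from the Achilles tendon. Control rats (Sham-GA) had the same operation with the tendon left whole, and soleus was taken 1, 3 or 7 days after surgery, which gave 6 groups. In the second experiment, the spinal cord was transected at 9 weeks of age (SCI), and at 14 weeks after transection all of these rats underwent the surgery for a nerve stimulator together with the same gastrocnemius tenotomy. SCI-ES rats carried a stimulator and received electrical stimulation (ES) of the muscles of the left lower leg, in daily sessions of 1 hour over 1, 3 or 7 days that began 16 weeks after transection. SCI rats received no stimulator, and their soleus was taken 21 days after that surgery. Sham-SCI rats had a laminectomy and no tenotomy, so that SCI differs from Sham-SCI in 2 operations, and the SCI rats match the SCI-ES rats of 7 days, but not those of 1 or 3 days, for the time since the second one. Each of the 11 groups had 3 arrays, 1 per animal, and values are log2 RMA values. A difference passed the test when limma's Benjamini-Hochberg adjusted p over all genes tested was under 0.05 and the change was at least 1.5 fold.

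The mean log2 level of 10 slow-twitch fiber markers was 12.66 to 12.96 in the groups of the GA experiment, 12.94 in Sham-SCI and 11.77 to 12.30 in SCI and SCI-ES. That of 9 fast-twitch fiber markers was 8.72 to 9.43 in the GA experiment, 11.59 in Sham-SCI and 12.40 to 13.02 in SCI and SCI-ES. In SCI against Sham-SCI all 10 slow-twitch markers were lower, 9 with groups apart, and all 9 fast-twitch markers were higher in the group means. The mean level of the fast-twitch markers spread widely in Sham-SCI, at 9.92, 13.06 and 11.79 on its arrays. On the SCI arrays it was 12.98, 12.41 and 12.96, so that Sham-SCI replicate 2 lay above all of them. Of the 34 genes, 12 had a mean level below 6.05, the 95th percentile of 53 olfactory receptor genes, which are not expected to be expressed in muscle. In whole muscle, fewer dividing cells and less of a transcript per cell cannot be told apart. Of all arrays, 2 stood apart from the other arrays of their group. In Sham-GA 3 days replicate 2, 6.27% of genes differed more than 2 fold from the mean of the other Sham-GA 3 days arrays, and across genes it correlated best with GA 3 days replicate 1 (r = 0.9917). In Sham-GA 1 day replicate 1 the share was 5.51%, and across genes it correlated best with GA 1 day replicate 1 (r = 0.9905). Both were kept under their labels, and results that rest on them are given with and without them.

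The promoters were searched for the motifs named above. RefSeq promoter sequences (build GRCr8) were at hand for 32 of the 40 genes, and the 250 bases before the start were searched on both strands. The E2F letters TTCCCGC or TTGGCGC were in 4 of 9 replication promoters (44.4%) and 2 of 23 mitosis promoters (8.7%), against 5.0% of all 33469 promoters. The cell cycle homology letters TTTGAA or TTCGAA were in 2 of 9 replication promoters (22.2%), 10 of 23 mitosis promoters (43.5%) and 17.4% of all. CCAAT was in 6 of 9 (66.7%), 17 of 23 (73.9%) and 34.0%, and CCAAT together with a cell cycle homology region was in 1 of 9, 9 of 23 and 6.31%. No E2F match overlapped a CCAAT match in any of the 32 promoters. These matches are a description of the sequences and not binding sites. The promoters shown are those of a helicase gene (Mcm6), of the replication gene that passed the test from day 1 to day 3 after GA (Rrm1), and of the mitosis genes Ccnb2 and Cdkn3, which passed it on day 3 and on day 7 against day 1. Each runs from 5′ to 3′ and ends at the base before the start, with matches to any of the 3 motifs in capitals. They lie at chr13:42404353-42404602 on the minus strand (Mcm6), chr1:166235654-166235903 on the plus strand (Rrm1), chr8:79981659-79981908 on the minus strand (Ccnb2) and chr15:22502136-22502385 on the plus strand (Cdkn3).
Mcm6: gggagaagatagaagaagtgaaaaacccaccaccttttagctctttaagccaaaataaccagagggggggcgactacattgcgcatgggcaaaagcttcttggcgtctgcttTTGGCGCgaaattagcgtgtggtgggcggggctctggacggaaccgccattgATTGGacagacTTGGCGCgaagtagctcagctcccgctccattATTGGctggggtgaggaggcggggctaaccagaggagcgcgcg
Rrm1: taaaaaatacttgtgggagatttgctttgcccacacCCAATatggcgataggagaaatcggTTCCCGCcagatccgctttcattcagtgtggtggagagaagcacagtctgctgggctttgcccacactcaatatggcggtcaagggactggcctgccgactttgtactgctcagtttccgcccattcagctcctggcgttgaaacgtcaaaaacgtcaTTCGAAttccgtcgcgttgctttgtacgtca
Ccnb2: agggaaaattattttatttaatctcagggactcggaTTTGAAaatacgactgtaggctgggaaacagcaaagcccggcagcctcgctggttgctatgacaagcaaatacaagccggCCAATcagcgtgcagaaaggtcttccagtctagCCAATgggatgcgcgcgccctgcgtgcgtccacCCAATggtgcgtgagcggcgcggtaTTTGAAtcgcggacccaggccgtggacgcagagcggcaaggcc
Cdkn3: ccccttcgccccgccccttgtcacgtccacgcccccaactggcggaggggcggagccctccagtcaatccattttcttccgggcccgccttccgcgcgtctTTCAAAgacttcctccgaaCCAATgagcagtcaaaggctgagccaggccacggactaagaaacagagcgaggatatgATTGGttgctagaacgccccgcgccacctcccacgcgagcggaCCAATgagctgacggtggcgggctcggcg
In the Mcm6 window, 2 E2F matches lay among 2 CCAAT boxes and there was no cell cycle homology region. The Ccnb2 window held 3 CCAAT boxes and 2 homology regions and the Cdkn3 window 3 and 1, with no E2F match in either. The Rrm1 window held 1 match of each kind. The promoters shown were a choice, and others of their kind differed. Bub1, Ccnb1 and Nusap1 also passed on day 3 and on day 7 against day 1. Of these, Ccnb1 and Nusap1 had CCAAT alone, and Bub1 had none of the 3 motifs. Among the other helicase genes, Mcm5 had E2F and CCAAT, Mcm3 had CCAAT alone and Mcm2 had a homology region alone.

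Relative to their own means, replication genes stood above mitosis genes on day 1 after surgery and below them on day 7, on every GA and Sham-GA array of those days. On day 3 they stood below them on every GA array, while the sham arrays differed among themselves. For each array, the deviation of each gene from its own mean over the 33 arrays was averaged over the 11 replication and the 23 mitosis genes. On day 1, replication genes stood above mitosis genes on all 6 arrays of the GA experiment, 3 GA and 3 Sham-GA, with mitosis minus replication at -0.82 to -0.28 (log2). On day 3 this difference was 0.33 to 0.80 on the GA arrays and -0.09, 0.63 and 0.12 on the Sham-GA arrays. On day 7 it was 0.34 to 0.45 on the GA arrays and 0.30 to 0.34 on the Sham-GA arrays. All 6 arrays of day 1 thus lay below all 12 arrays of the later days. GA and Sham-GA arrays overlapped on day 1 and on day 3, and on day 7 they met at 0.34. Sham-GA 1 day replicate 1 had replication genes at 1.06, above the other arrays of day 1 (-0.28 to 0.45), yet its difference was -0.66. Sham-GA 3 days replicate 2 had mitosis genes at 1.59, between GA 3 days replicate 2 (0.75) and replicate 1 (1.71). In the SCI experiment the difference was -0.39 to 0.24 on the 15 arrays, and both gene groups lay low, at -0.63 to 0.11 for replication and -0.82 to 0.13 for mitosis.

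**Figure D1:**
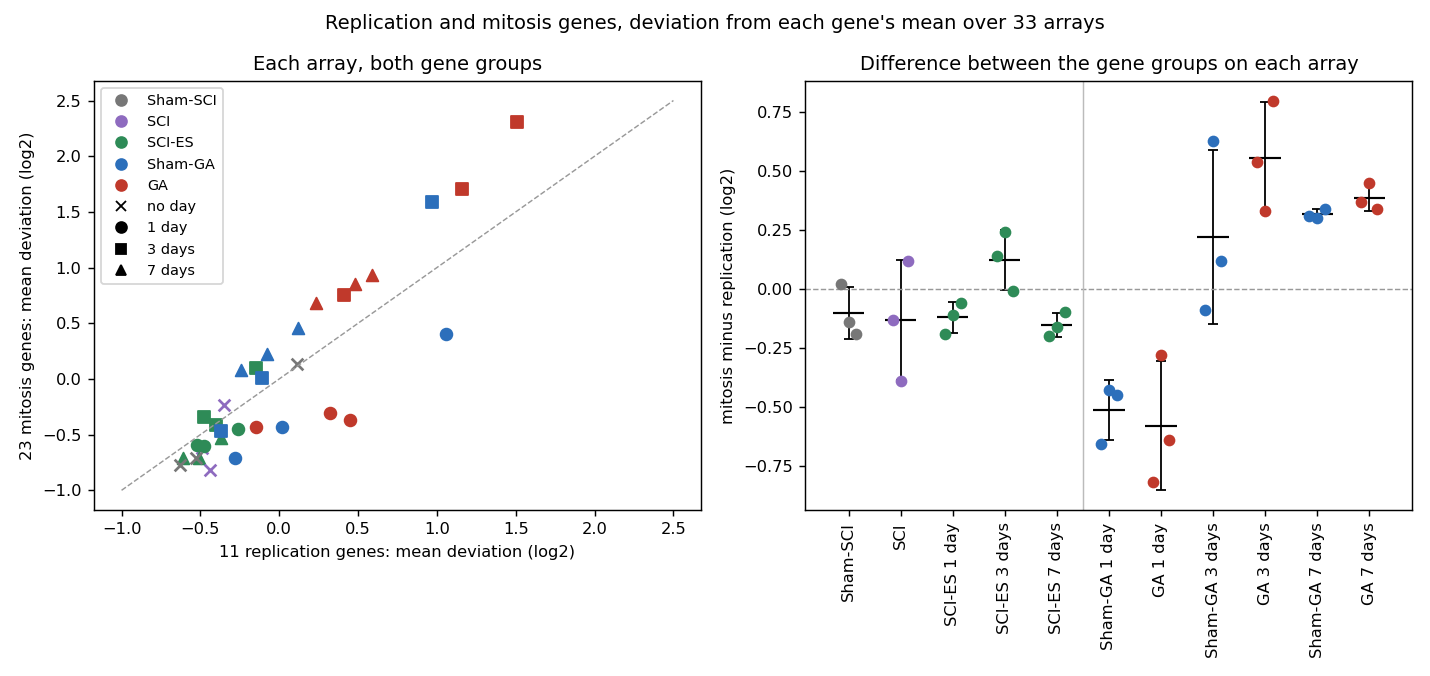
Left, the mean deviation (log2) of the 11 replication genes (x axis) against that of the 23 mitosis genes (y axis) on each of the 33 arrays, with color for the treatment, shape for the day and a dashed line of equality. Right, mitosis minus replication (log2) for each array by group, with the mean and SD (n = 3); the 6 arrays of GA and Sham-GA at 1 day lie between -0.82 and -0.28, below all arrays of those treatments at 3 and 7 days.

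Between day 1 and day 3 after GA, all 34 cell division genes were higher, and 17 passed the test, of which 16 were mitosis genes and 1 a replication gene. Among all genes tested in this comparison 3.09% passed, 2.37% upward and 0.713% downward. The median difference was 2.02 (log2) for the mitosis genes and 0.58 for the replication genes, against -0.03 for all genes. On 26 of the 34 genes the 3 arrays of GA 3 days lay above the 3 of GA 1 day, which held for 11.9% of all genes; 22 of these were mitosis genes and 4 were replication genes.

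Among Cdk1 and the genes that act on it, all but Ccna2 passed the test in that interval, and Cdkn3 had the largest fitted difference of the 34 genes. Cdkn3, a phosphatase that acts on cyclin-dependent kinases, was at 5.29, 5.63 and 5.60 on the GA 1 day arrays and at 8.78, 8.18 and 9.73 on the GA 3 days arrays. The groups did not overlap, and the fitted difference was 3.39 (SE 0.63, limma adjusted p = 0.011). The GA 1 day arrays lay under 6.05, the level of the olfactory receptor genes given above, and against that level the change was at least 7.21 fold. For 10 of the 17 genes that passed all 3 GA 1 day arrays lay under that level, and for each of these the change is given as such a lower bound. Ccnb1 went from 5.62, 5.49 and 5.75 to 8.21, 7.23 and 8.81, a rise of at least 4.10 fold with groups apart (log2 2.46, SE 0.49, limma adjusted p = 0.015). Ccnb2 rose 4.90 fold (log2 2.29, SE 0.39, limma adjusted p = 0.0089), from 5.96, 6.12 and 6.12 to 8.49, 7.64 and 8.94. Cdk1, the kinase itself, rose at least 3.22 fold (log2 2.51, SE 0.59, limma adjusted p = 0.030). Ccna2, the cyclin used in both S phase and mitosis, was at 6.37, 6.01 and 6.38 and then at 8.44, 7.07 and 9.27, with groups apart and a difference of 2.01 that did not pass (SE 0.61, limma adjusted p = 0.081).

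Among the genes of the kinetochore and its checkpoint, Bub1 was the gene with the smallest adjusted p together with Ccnb2. Bub1, a checkpoint kinase, went from 6.39, 6.62 and 6.37 to 8.12, 7.67 and 8.71, and rose 3.27 fold (log2 1.71, SE 0.29, limma adjusted p = 0.0089). Bub1b, its partner in the checkpoint complex, rose at least 1.62 fold, and Ndc80, which binds microtubules at the kinetochore, rose at least 2.69 fold. Birc5 (survivin), of the chromosomal passenger complex, rose at least 1.56 fold. Ttk, Mad2l1 and Aurkb, also of the checkpoint and the passenger complex, had groups apart with differences of 1.81, 1.16 and 1.47 (log2), and did not pass (limma adjusted p = 0.076, 0.10 and 0.099).

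Spindle and chromosome genes followed. Plk1, the main mitotic polo-like kinase, rose 5.77 fold, and Top2a, the topoisomerase that untangles sister chromosomes, rose 5.56 fold. The kinesins Kif20a, Kif11 and Kif23 rose at least 3.55, 3.11 and 2.93 fold, and the spindle protein Nusap1 rose at least 3.88 fold. Cdc20 rose 5.17 fold (log2 2.37, SE 0.47, limma adjusted p = 0.015), and Ube2c, the ubiquitin-conjugating enzyme that works with it, rose 1.76 fold. Plk4, which starts the copying of centrioles, and Tpx2, which activates Aurka on the spindle, had groups apart with differences of 2.31 and 1.83 (log2) and did not pass (limma adjusted p = 0.053 and 0.057). Aurka was the exception among the mitosis genes, at 5.98, 5.62 and 6.01 on day 1 and 5.98, 5.73 and 6.79 on day 3, with overlapping groups and a difference of 0.30 (SE 0.22).

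Replication genes had smaller differences in the same interval, apart from Rrm2 and Tyms. Rrm1 rose 1.68 fold (log2 0.75, SE 0.18, limma adjusted p = 0.032), from 9.31, 8.96 and 9.22 to 9.94, 9.59 and 10.20. Rrm2 went from 7.31, 6.77 and 7.31 to 9.50, 8.23 and 10.25 (log2 2.20, SE 0.74, limma adjusted p = 0.11), and Tyms from 7.20, 6.78 and 7.22 to 8.38, 7.82 and 8.98 (log2 1.33, SE 0.38, limma adjusted p = 0.064). Both had groups apart without passing. Ccne1 and Ccne2, the E cyclins, had differences of 1.11 and 0.82 and did not pass (limma adjusted p = 0.20 and 0.25), and neither did Pcna (0.58). The helicase and loading genes overlapped between the days, with differences of 0.32 (Mcm2), 0.40 (Cdc45), 0.47 (Mcm5), 0.51 (Mcm6) and 0.52 (Cdc6), none of which passed. Mcm6 was already at 7.82, 6.86 and 7.51 on day 1, against 8.22, 7.20 and 8.31 on day 3. Second rows for Ccnb2 and Rrm2 gave the same pattern over the arrays (r = 1.0 over the 33 arrays for both), so near-identical transcripts cannot be told apart for these genes. A second, dimmer row for Rrm1 followed its first row less closely (r = 0.52).

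How many genes passed in this interval depended on single arrays. The count was 6, 10 and 0 without GA 1 day replicates 1, 2 and 3, and 2, 24 and 7 without GA 3 days replicates 1, 2 and 3. Without GA 1 day replicate 3, 0.187% of all genes passed, and the medians over the 6 fits were 1.60 to 2.55 for the mitosis genes and 0.38 to 0.91 for the replication genes. Over these 6 fits the change of Cdkn3 was 2.97 to 3.75 (log2) with limma adjusted p of 0.015 to 0.059, and those of Bub1 and Ccnb2 were 1.44 to 1.96 and 2.00 to 2.65, with adjusted p up to 0.056 and 0.054.

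**Figure D2:**
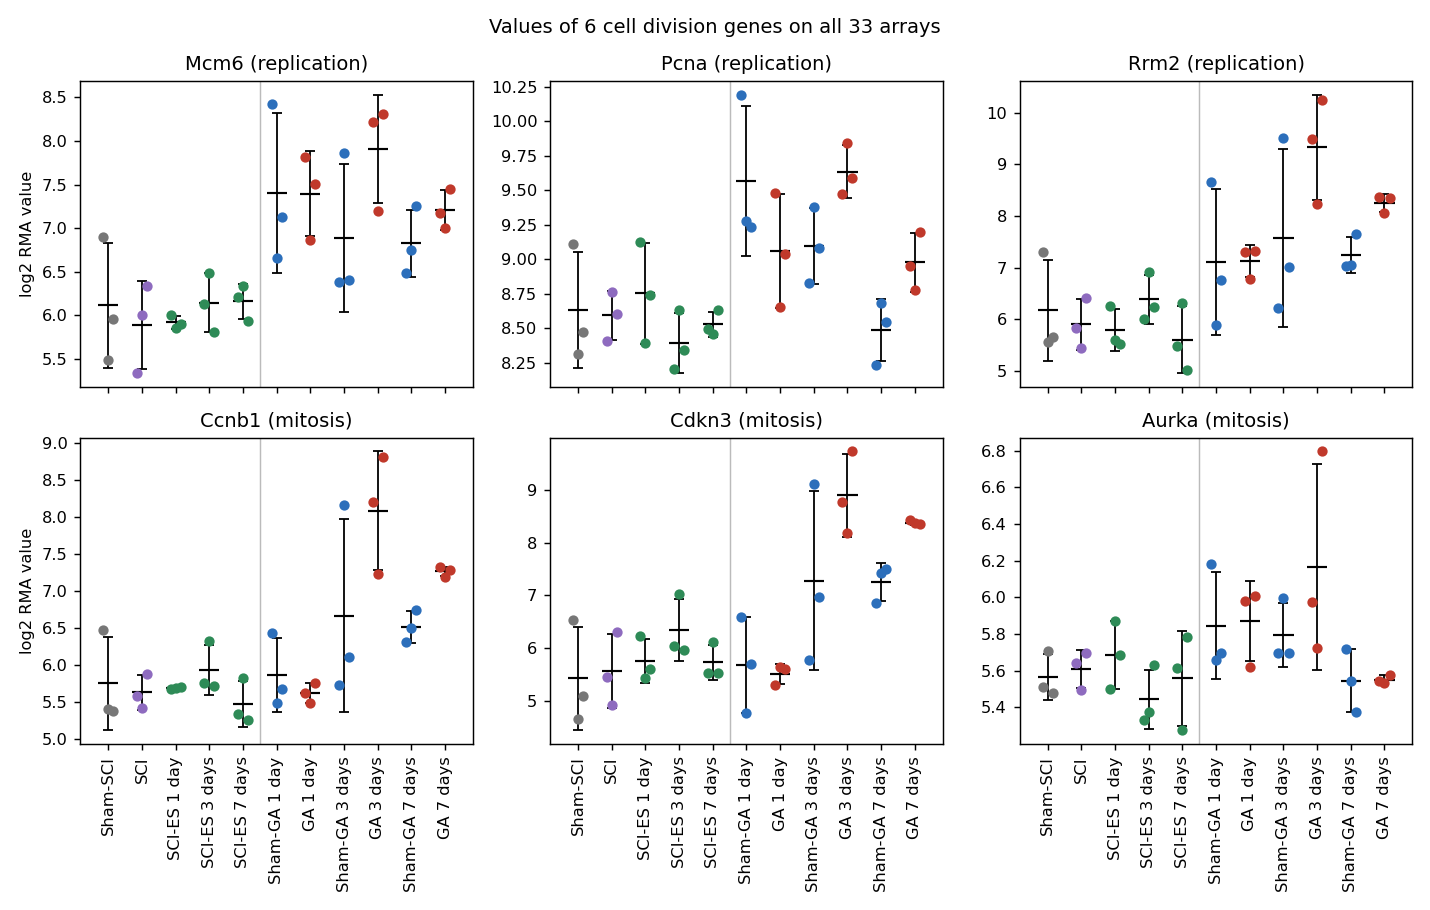
Log2 RMA values (y axis) of 6 cell division genes on all 33 arrays by group (x axis), as points for single arrays with the mean and SD (n = 3); gray is Sham-SCI, purple SCI, green SCI-ES, blue Sham-GA and red GA. Cdkn3 and Ccnb1 are low on the GA 1 day arrays and high on those of GA 3 days, where Cdkn3 spans 8.18 to 9.73, while Mcm6 spans 6.86 to 7.82 and 7.20 to 8.31 on the same arrays.

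At day 7 after GA, 5 of the 34 genes had risen past the test from day 1, all of them mitosis genes, where 8.6% of all genes passed (5.66% upward and 2.94% downward). The 5 were Cdkn3 (at least 5.04 fold), Ccnb1 (at least 2.33 fold), Nusap1 (at least 2.54 fold), Ccnb2 (2.73 fold) and Bub1 (2.18 fold). Cdkn3 was at 8.42, 8.37 and 8.35 on day 7 and passed in each of the 6 fits that left out 1 of these arrays (limma adjusted p = 0.0069 with all arrays, and 0.018 to 0.030 in those fits). The count was 1, 4 and 1 without GA 1 day replicates 1, 2 and 3, and 1, 3 and 1 without GA 7 days replicates 1, 2 and 3. It was 14 without Sham-GA 3 days replicate 2, which enters the fit through the shared spread (9.36% of all genes). The median difference was 1.26 for the mitosis genes, with the arrays of the days apart, above day 1, on 22 of 23 genes (16.7% of all genes), and -0.08 for the replication genes, of which 5 of 11 were higher. Mcm5, a helicase subunit, was lower on day 7 than on day 1 with overlapping groups, at 7.08, 6.48 and 6.99 against 7.35, 6.76 and 7.28 (difference -0.28, SE 0.50). Aurka was also lower on day 7, at 5.54, 5.53 and 5.58, with groups apart below and a difference of -0.32 that did not pass (18.4% of all genes lay apart below).

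In sham-operated muscle the median difference over the days was higher for the mitosis genes than for the replication genes, also without either array that stands apart. From day 1 to day 3 no gene of the list passed in Sham-GA, and none of all genes did (0%), with 4 of the 34 at an unadjusted limma p under 0.05 (784 of 14451 genes) and with the arrays of both days overlapping on all 34 (3.65% of all genes lay apart above). The median difference was 0.56 for the mitosis genes and -0.03 for the replication genes, with Cdkn3 at 6.58, 4.76 and 5.69 on day 1 and 5.77, 9.11 and 6.97 on day 3. Without Sham-GA 3 days replicate 2 these medians were -0.07 and -0.48, so that the direction of the mitosis genes turned, and without Sham-GA 1 day replicate 1 they were 0.93 and 0.23. At day 7 against day 1 the medians were 0.50 for the mitosis genes and -0.29 for the replication genes. Without Sham-GA 1 day replicate 1 they were 0.83 and -0.06. Pcna, the clamp, was the gene that passed, at 10.19, 9.27 and 9.24 on day 1 and 8.24, 8.68 and 8.54 on day 7, and it fell by 1.08 on the log2 scale (SE 0.25, limma adjusted p = 0.014), in a comparison in which 6.57% of all genes passed, 3.46% upward and 3.11% downward. The call ended without Sham-GA 1 day replicate 1 or Sham-GA 7 days replicate 1 (adjusted p up to 0.054). The groups were apart above on 3 of the 34 genes, Cdkn3, Kif20a and Kif23, and below on 2, Pcna and Mcm2, both smaller shares than over all genes (10.5% and 18.1%). Cdkn3, at 6.85, 7.42 and 7.50 on day 7, had a difference of 1.58 (SE 0.63, limma adjusted p = 0.13).

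GA was then set against Sham-GA on each day. On day 1, none of the 34 genes passed or was at an unadjusted limma p under 0.05, where 0.0554% of all genes passed, and the groups overlapped on all 34. The differences ran from -0.51 (Pcna) to 0.22 (Cdc6), with medians of -0.01 for the replication genes and -0.10 for the mitosis genes. Besides Pcna, the largest were those of Cdk1 (-0.40), Bub1 (-0.39), Cdc20 (-0.33) and Ccnb2 (-0.27). Mcm6 was at 7.82, 6.86 and 7.51 after GA and 8.43, 6.66 and 7.13 after the sham operation, so that replicate 1 of the sham group was the highest of the 6. Without that array 29 of the 34 genes were higher after GA, against 10 with it, the medians were 0.33 and 0.19, and still none passed (1.26% of all genes did).

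On day 3 all 34 genes were higher after GA than after the sham operation, with a median of 0.90 for the replication genes, 1.33 for the mitosis genes and -0.03 for all genes. None passed with all arrays, and none of all genes did (0%). At an unadjusted limma p under 0.05 there were 25 of the 34 (2383 of 14451 genes). The methods' two-way test for a main effect of GA was counted at an unadjusted p under 0.05 together with 1.5 fold on day 3. That held for 2 of the 34 (Bub1b and Mad2l1) and 632 of all genes, and after Benjamini-Hochberg adjustment for 0 of the 34. In the genes with the largest differences the groups overlapped through 1 sham array. Ccnb1 was at 8.21, 7.23 and 8.81 after GA and at 5.73, 8.16 and 6.11 after the sham operation. Plk4, with the largest difference (1.90, SE 0.63), was at 7.82, 6.69 and 8.26 against 4.49, 7.47 and 5.11. Rrm2 was at 9.50, 8.23 and 10.25 against 6.21, 9.52 and 7.01 (difference 1.75, SE 0.74), followed by Top2a (1.71), Cdkn3 (1.62) and Cdk1 (1.54). In each of these genes Sham-GA 3 days replicate 2 lay above GA 3 days replicate 2, while the other sham arrays lay below all GA arrays. Pcna was the gene whose groups did not overlap, at 9.47, 9.84 and 9.59 against 8.83, 9.38 and 9.08 (5.86% of all genes), and Ube2c had the smallest difference (0.33, SE 0.20).

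Without Sham-GA 3 days replicate 2, 27 of the 34 genes rose past the test in that comparison, 6 of 11 replication and 21 of 23 mitosis genes, where 8.9% of all genes passed. The medians were then 1.27 and 1.95. The array left out stood highest of the Sham-GA 3 days arrays, at 0.97 against -0.37 and -0.11 in the replication mean. In the mitosis mean it was at 1.59 against -0.47 and 0.01. Leaving it out was thus bound to raise the differences, and the values without it are not an independent test. Plk4 rose at least 2.91 fold over the level of the olfactory receptor genes (log2 2.79, SE 0.50, limma adjusted p = 0.016), Rrm2 6.58 fold, Cdkn3 5.77 fold, Cdk1 at least 3.22 fold and Ccnb1 4.47 fold. Of the replication genes, Mcm6 rose 2.86 fold and Mcm2 2.07 fold, while Mcm5 (log2 1.45, SE 0.47, limma adjusted p = 0.058), Ccne1, Cdc6, Cdc45 and Pcna did not pass. Aurka and Ube2c were the mitosis genes that did not pass. The count remained 0 without any 1 of the other 5 arrays, and with Sham-GA 1 day replicate 1 left out as well it was 31, where 13.7% of all genes passed.

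**Figure D3:**
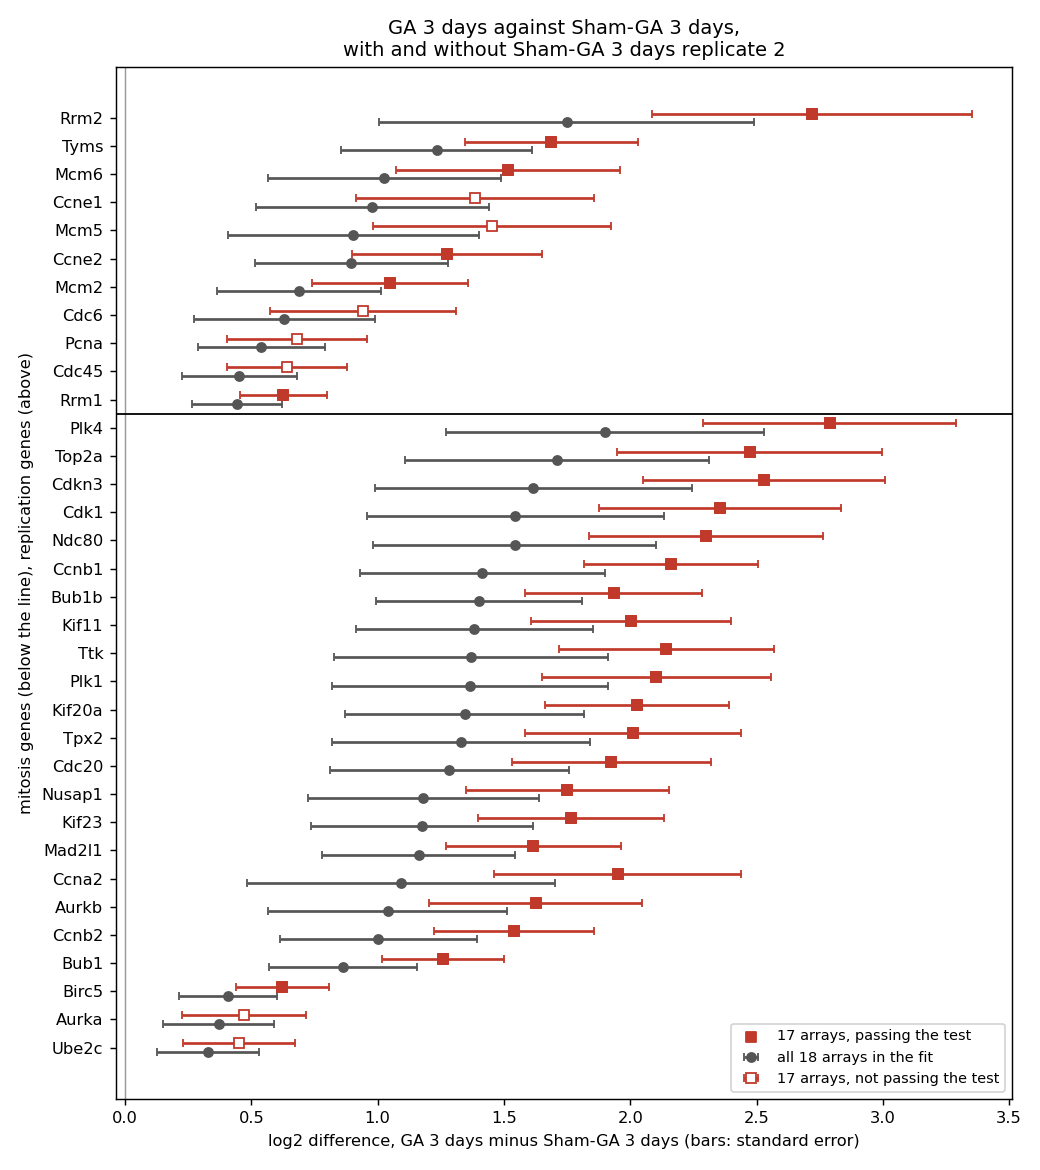
Log2 difference between GA 3 days and Sham-GA 3 days (x axis, bars are standard errors) for the 34 cell division genes (y axis), from the fit of all 18 arrays of the GA experiment (gray circles) and without Sham-GA 3 days replicate 2 (red squares, filled where the gene passed). All 34 differences lie above 0 in both fits, and 27 squares are filled.

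On day 7 the 34 genes were again all higher after GA, by less and with little spread. The median difference was 0.47 for the replication genes and 0.58 for the mitosis genes, against 0.00 for all genes, and the range ran from 0.01 (Aurka) to 1.13 (Cdkn3). None passed, none of all genes did (0%), and none of the 34 was at an unadjusted limma p under 0.05 (380 of 14451 genes were). The 3 GA arrays nevertheless lay above the 3 sham arrays on 26 of the 34 genes, 8 of 11 replication and 18 of 23 mitosis genes, which held for 4.86% of all genes, and below them on none (6.35% of all genes). The SE of these differences comes from all 18 arrays, those of day 3 included. Cdkn3 was at 8.42, 8.37 and 8.35 against 6.85, 7.42 and 7.50 (difference 1.13, SE 0.63), and Rrm2 at 8.37, 8.06 and 8.34 against 7.03, 7.05 and 7.65 (1.01, SE 0.74). Ccna2, at 7.96, 7.60 and 7.77 against 6.89, 6.81 and 7.11, had a difference of 0.84, and Plk4 and Cdk1 had differences of 0.82 and 0.79. Cdc6, Mcm5, Mcm6, Aurka, Birc5, Top2a, Ttk and Ube2c overlapped. The change of the GA effect itself, from day 1 to day 3 or from day 1 to day 7, passed for none of the 34 genes or of all genes (0% for both), with 12 and 1 of the 34 at an unadjusted p under 0.05. Between day 1 and day 3 it was above 0 in all 34, with medians of 0.90 for the replication and 1.37 for the mitosis genes and the largest values in Plk4 (2.02, SE 0.89), Cdk1 (1.94), Ndc80 (1.81), Cdkn3 (1.79) and Top2a (1.78) and the smallest in Aurka (0.35). Between day 1 and day 7 it was above 0 in 33 of 34, from -0.02 (Aurka) to 1.30 (Cdkn3), with Cdk1 at 1.19, Ccna2 at 1.03 and Pcna and Ccnb1 both at 1.00.

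**Figure D4:**
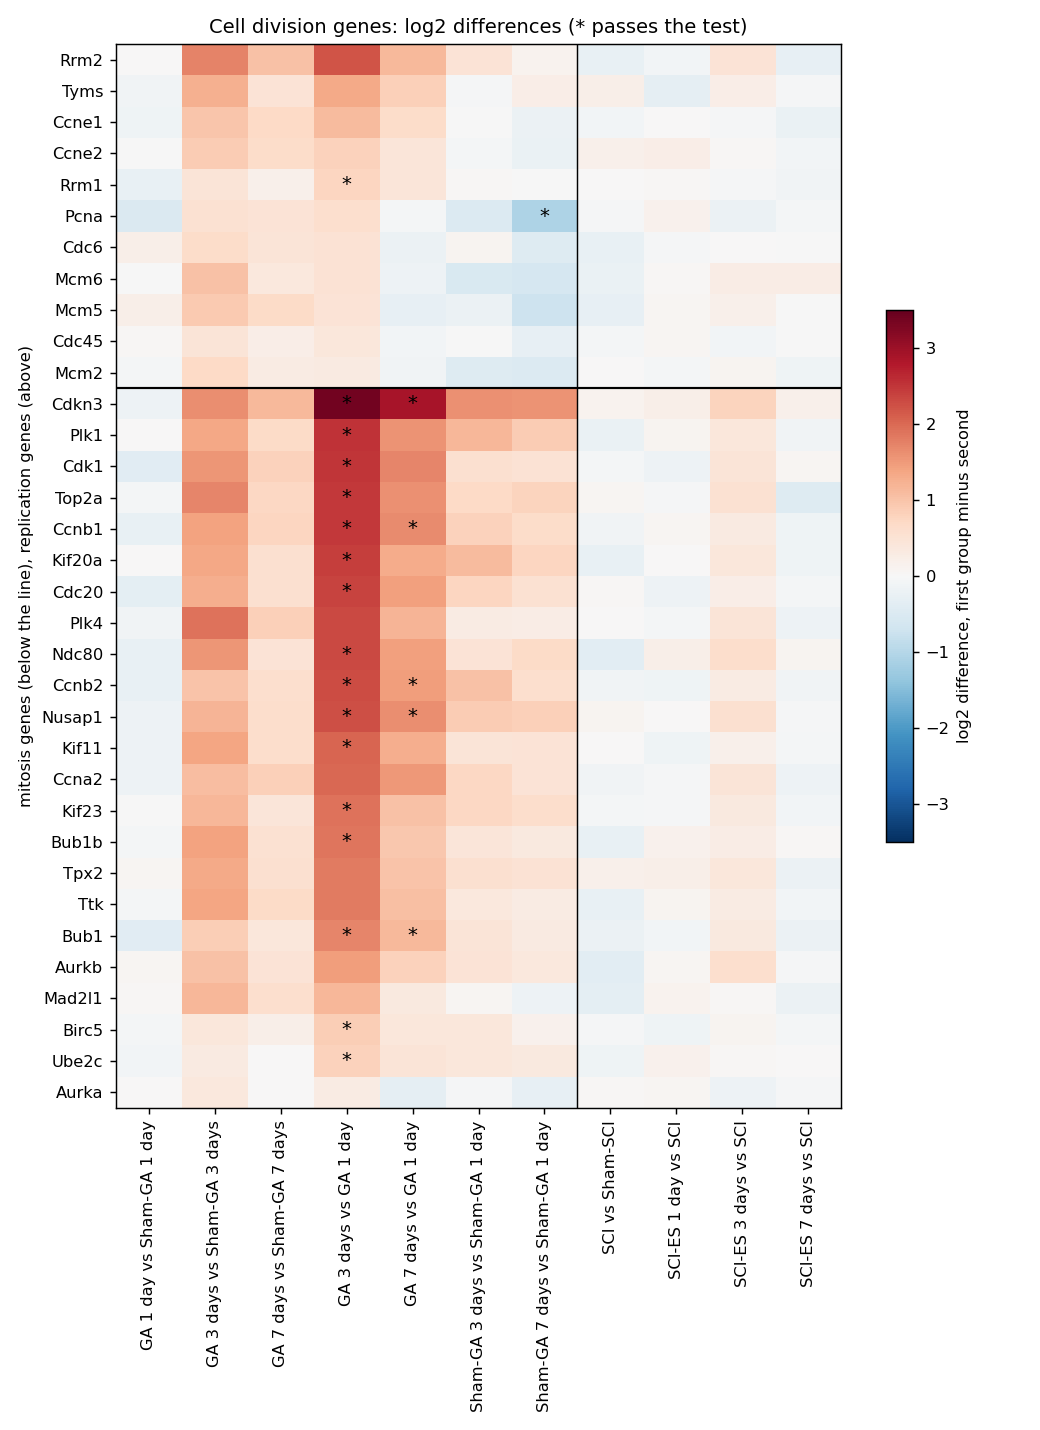
Log2 differences (color, first group minus second) of the 34 cell division genes (rows, replication genes above the line and mitosis genes below it, both ordered by GA 3 days against GA 1 day) in 11 comparisons (columns), with an asterisk where the gene passed the test. The mitosis genes are highest in GA 3 days against GA 1 day, with 16 asterisks, and the 4 comparisons of the SCI experiment on the right hold none.

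Further genes of the cell cycle, outside the list of 40, were counted in the same comparisons. Of 57 other mitosis genes, 24 rose from day 1 to day 3 after GA and none fell, with a median of 1.11 and a range from -0.02 (Zwint) to 2.73 (Pttg1). Pttg1 (securin, which holds back the separation of sister chromosomes) rose at least 6.33 fold, Ect2 and Prc1 of the dividing cell's midzone at least 2.66 fold and 4.76 fold, and the kinesin Kif4a at least 2.16 fold. Of 43 other replication genes, Rpa1, a subunit of the single-strand binding complex, rose 1.70 fold and no other passed, with a median of 0.43 and a range from -0.21 (Mcm8) to 0.92 (Mcm10). By day 7 after GA, 6 of the 57 rose against day 1, where 5.66% of all genes rose, Pttg1, Prc1, Ect2 and Kif4a among them (at least 3.42, 2.96, at least 1.49 and at least 1.13 fold; median 0.57), and none of the 43 did (median -0.03). In Sham-GA from day 1 to day 7, 3 of the 43 fell, Mcm7 by 0.89, Tipin by 0.86 and Rpa2 by 0.60 on the log2 scale, with 38 of the 43 lower, and 1 of the 57 fell, Zwint, by 0.63, where 3.11% of all genes fell. In GA against Sham-GA, none of either group passed on any day (0.0554%, 0% and 0% of all genes), with 56 of 57 and 38 of 43 higher on day 3, and 54 of 57 and 38 of 43 higher on day 7. At an unadjusted limma p under 0.05 there were 3 and 5 on day 1, 40 and 20 on day 3, and 1 and 2 on day 7.

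Regulators of the cycle were counted as well. From day 1 to day 3 after GA, 2.37% of all genes passed upward and 0.713% downward. From day 1 to day 7, 5.66% passed upward and 2.94% downward after GA, and 3.46% and 3.11% after the sham operation. Of 20 G1 cyclins, kinases, E2F and Rb family genes and mitotic gene activators, Foxm1, which activates mitosis genes, rose 2.23 fold from day 1 to day 3 after GA, and Rbl2 rose 1.51 fold, with a median of 0.19. Mybl2, with the highest difference of that list (1.22), and Myc, with the lowest (-1.23), did not pass there. From day 1 to day 7 after GA, Myc fell by 1.75 on the log2 scale (SE 0.39, limma adjusted p = 0.0072). Over the same days after the sham operation its difference was -1.10, which did not pass. Of a list of 19 genes, mainly inhibitors of the cell cycle, Cdkn2c rose 2.39 fold from day 1 to day 3 after GA, with a median of -0.10. By day 7, Gadd45g and Gadd45a fell by 1.41 and 1.30 on the log2 scale and Cdkn1c (p57) rose 2.36 fold. In Sham-GA over the same interval Gadd45a fell by 1.69 and Cdkn1c rose 2.41 fold. Mdm2 of that list fell by 0.59, but it acts against p53 and is not itself an inhibitor of the cycle.

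Markers of several kinds of cell between the fibers changed over the same days. Over all genes, 2.37% passed upward and 0.713% downward from day 1 to day 3 after GA. From day 1 to day 7 these shares were 5.66% and 2.94% after GA, and 3.46% and 3.11% after the sham operation. For GA against Sham-GA on day 3, 0% of all genes passed and 2383 of 14451 were at an unadjusted limma p under 0.05. Of 20 macrophage markers, 19 were analysed, all with a mean above the 95th percentile of the olfactory receptor genes. From day 1 to day 3 after GA, 12 were higher and 7 lower (median 0.17), and the complement genes C1qa, C1qb and C1qc rose (3.25, 3.66 and 2.97 fold), with a mean log2 level over the markers of 9.95, 9.26 and 9.58 on the GA 1 day arrays and 9.94, 9.65 and 10.28 on the GA 3 days arrays. On day 3 all 19 were higher after GA than after the sham operation, none passed (6 at an unadjusted limma p under 0.05), and the sham arrays stood at 8.36, 10.06 and 8.80. Sham-GA 3 days replicate 2 was thus high in macrophage markers as well as in cell division genes, and so was Sham-GA 1 day replicate 1, at 10.00 against 8.62 and 8.63. On day 7 the mean level was 8.89 to 9.92 on the sham arrays and 9.43 to 9.89 on the GA arrays. Against day 1, 8 macrophage markers were higher and 11 lower after GA (median -0.34), of which 5 rose and 1 fell past the test. After the sham operation 11 were higher and 8 lower (median 0.21), and 4 rose past the test. Of 13 fibroblast markers, 7 rose from day 1 to day 3 after GA, Col1a1 5.29 fold, and 9 from day 1 to day 7 both after GA and after the sham operation, with the mean level at 8.82 to 9.32 on the GA 1 day arrays, 10.06 to 10.46 on those of day 3 and 10.67 to 10.91 on those of day 7. On day 3, 12 of the 13 were higher after GA than after the sham operation, with 7 at an unadjusted limma p under 0.05 and none that passed. Of 11 satellite cell and myoblast markers, 8 were higher on day 3 than on day 1 after GA (median 0.51), Sdc4 fell and none rose past the test, with the mean level at 7.57 to 7.90 on day 1 and 7.65 to 8.43 on day 3. By day 7 after GA, Vcam1 of that list rose 2.21 fold and Myog fell by 1.86 on the log2 scale. Of 12 neutrophil markers, Cxcr2, S100a9 and S100a8 fell from day 1 to day 3 after GA, and all 12 were lower, with the mean level at 6.29 to 7.25 and then 5.43 to 5.73. Of 12 endothelial markers, Tek rose 1.77 fold from day 1 to day 3 after GA (mean level 8.21 to 8.42 and then 8.15 to 8.86). Slow-twitch fiber markers were lower on day 3 after GA than after the sham operation in 9 of 10. Of these markers 3 were apart below (7.64% of all genes), 6 were at an unadjusted limma p under 0.05 and none passed. The part of these cells in the values of the cell division genes was not tested.

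In the SCI experiment no cell division gene passed in any comparison. For SCI against Sham-SCI, where 0.401% of all genes passed, the medians were -0.08 for the replication and -0.12 for the mitosis genes, with 1 of the 34 at an unadjusted limma p under 0.05. The differences ran from -0.38 (Aurkb, the kinase of the passenger complex) to 0.20 (Tyms), with Ndc80 at -0.38, Mad2l1 at -0.34, Mcm5 at -0.29 and Rrm2 at -0.27. Sham-SCI replicate 1 was the highest of the 6 arrays for all genes named in this comparison so far, and so it was with Ccnb1 at 6.48, 5.40 and 5.38 in Sham-SCI and 5.58, 5.42 and 5.88 in SCI, and its macrophage markers stood at 9.17, against 7.14 and 7.79. Cdc6 and Ube2c had groups apart below (13.1% of all genes) and no gene of the list had groups apart above (9.14%).

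With 1 day of ES, the differences from SCI ran from -0.31 (Tyms) to 0.22 (Ccne2), with Ndc80 at 0.22, Tpx2 at 0.20 and Cdkn3 at 0.20, and with medians of 0.03 for the replication and 0.02 for the mitosis genes. None of the 34 was at an unadjusted limma p under 0.05, and none of all genes passed (0%). With 3 days of ES, 29 of the 34 genes were higher than in SCI, 22 of 23 mitosis genes and 7 of 11 replication genes, with medians of 0.35 for the mitosis and 0.04 for the replication genes, and 1 of the 34 was at an unadjusted limma p under 0.05. None of all genes passed (0%). Cdkn3 was at 6.04, 7.02 and 5.97 with 3 days of ES and 5.45, 4.91 and 6.31 in SCI (difference 0.79, SE 0.46), and Ndc80 at 5.42, 6.02 and 4.86 against 4.71, 4.36 and 5.34 (0.63, SE 0.34). The groups overlapped in both genes. Aurkb (0.58), Nusap1 (0.55) and Top2a (0.54) followed, and Pcna had the lowest difference (-0.20). SCI-ES 3 days replicate 2 was the highest of its group for Cdkn3, Ndc80, Top2a and Ccnb1, and its macrophage markers stood at 9.40, against 8.29 and 7.46. Against 1 day of ES, 3 days had groups apart above on 10 of the 34 genes, where 6.63% of all genes did, 9 of them mitosis genes, as with Cdk1 at 5.38, 5.96 and 5.51 against 5.12, 5.02 and 4.81 (difference 0.63, SE 0.33, limma adjusted p = 0.45). None of the 34 passed there or was at an unadjusted p under 0.05. In the same comparison all 12 endothelial markers had groups apart above (median 0.80, all at an unadjusted limma p under 0.05 and none that passed), and so had 9 of 11 pericyte and smooth muscle markers (median 0.62), while 9 of 19 macrophage markers were higher (median -0.01). Their part in the values of the cell division genes was not tested. Rrm2 (0.59), Cdkn3 (0.60), Top2a (0.57) and Tyms (0.54) came next, and Pcna was lowest (-0.36).

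With 7 days of ES, 28 of the 34 genes were lower than in SCI, with medians of -0.06 for the replication and -0.10 for the mitosis genes and a range from -0.44 (Top2a) to 0.27 (Mcm6), and none was at an unadjusted limma p under 0.05 (0% of all genes passed). Rrm2 (-0.29), Ccne1 (-0.23) and Mad2l1 (-0.20) were next to Top2a. Against 1 day of ES, the differences ran from -0.41 (Top2a) to 0.28 (Tyms), with Tpx2 at -0.40, Mad2l1 at -0.32 and Ccne2 at -0.31. The 3 ES groups were set against the same SCI arrays, so that these differences share their controls. None of the 57 other mitosis genes or the 43 other replication genes passed in the SCI experiment, and with 3 days of ES their medians against SCI were 0.16 and -0.02, with 8 and 1 at an unadjusted limma p under 0.05.

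The effect of ES (against SCI) was also set against that of GA (against Sham-GA) at the same number of days, over all 33 arrays. Those days count from surgery for GA and from the start of stimulation for ES. No cell division gene passed on any day by limma, where 0.0554% of all genes passed on day 1 and 0% on days 3 and 7, and 0, 6 and 0 of the 34 were at an unadjusted p under 0.05. On day 1 the difference, ES minus GA, ran from -0.25 (Cdc6) to 0.67 (Pcna), with medians of 0.04 for the replication and 0.14 for the mitosis genes and with Ndc80 at 0.48, Cdkn3 at 0.36, Ccnb1 at 0.31 and Bub1 at 0.29. On day 3 it was below 0 in all 34, from -1.44 (Plk4, SE 0.78) to -0.30 (Ube2c), with medians of -0.74 and -0.93, and with Rrm2 at -1.26, Kif11 at -1.19, Top2a at -1.18 and Bub1b at -1.14. Without Sham-GA 3 days replicate 2 the medians were -1.23 and -1.62 and still none passed. On day 7 it was below 0 in all 34, from -1.31 (Rrm2, SE 0.94) to -0.01 (Ube2c), with medians of -0.50 and -0.71, and with Top2a at -1.17 and Plk4 and Ccna2 both at -1.01. The 2 effects are of unlike treatments. That of GA sets a cut tendon against a whole one, while SCI and SCI-ES rats all had the tenotomy and differ in the stimulator and its use. The experiments also differ in age, in spinal cord injury and in the time since tenotomy, and these differences cannot be told apart here.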

How the data were processed

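Soleus RNA was measured on 33 Affymetrix rat arrays, 1 per animal, in 11 groups of 3. The deposited log2 values were made by the authors with RMA in oligo (baseline subtraction, quantile normalization, median polish; version not given in the sources used here). Of 29214 rows, 15310 carried 1 gene symbol in the platform annotation; the brightest row stood for each of 14506 genes. Levels of different genes come from different probes and were not compared.

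Genes with a mean of at least 3 were tested with limma 3.58.1 (R 4.3.3) in 1 fit of the 18 GA arrays (14451 genes), 1 of the 15 SCI arrays (14456 genes) and, for ES minus GA, 1 of all 33 arrays (14453 genes), with no replicate block. To pass, a gene needed a Benjamini-Hochberg adjusted p under 0.05 over all genes tested and 1.5 fold. Where every array of the dimmer group lay under the 95th percentile of 53 olfactory receptor genes, a fold is a lower bound, the brighter mean over that level. The fits were tested on simulated data. The number of animals limits the precision. Members and gene lists were chosen with earlier results of these data known. Per comparison, the members that passed, or the 5 largest differences and both ends of the range, were named. Of other lists, up to 4 genes that passed were named, and the ends of the range only in part. Col1a1 was chosen after its values were seen. Alternatives covered the filter, normalization, prior, array weights, rows of a gene, arrays in the fit, the block and the methods' one-way and two-way tests; leaving out both arrays that stand apart was chosen after seeing the data.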

Additional observations from a re-analysis of the deposited data

How the results depend on the processing

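The count of cell division genes that passed was set against the reported one in 209 combinations of a comparison and an alternative. It was equal to it, or within 1.5 times it in the same direction, in 194. Only GA 3 days against GA 1 day, GA 7 days against GA 1 day and Sham-GA 7 days against Sham-GA 1 day had a reported count above 0. In all other comparisons 0 against 0 counted as the same, so that the 194 says little about how stable a count above 0 is. With limma's array weights it was 30 for GA 3 days against Sham-GA 3 days (0 as reported), 28 for GA 3 days against GA 1 day (17), 20 for GA 7 days against GA 1 day (5), 6 for Sham-GA 7 days against Sham-GA 1 day (1, downward, as reported; 5 of the 6 were upward), 20 for the change of the GA effect from day 1 to day 3 (0) and 31, all downward, for ES minus GA at 3 days (0). With both arrays that stand apart left out it was 31 for GA 3 days against Sham-GA 3 days, 18 for GA 7 days against GA 1 day, and 3 for Sham-GA 7 days against Sham-GA 1 day, 2 of them upward. With the 2 groups alone in the fit it was 11 for GA 3 days against GA 1 day, 21 for GA 7 days against GA 1 day and 0 for Sham-GA 7 days against Sham-GA 1 day. GA 7 days against GA 1 day gave 8 among the genes of highest variance and 11 in 1 fit of all 33 arrays. GA 3 days against Sham-GA 3 days gave 2 by the methods' two-way test at its unadjusted p with 1.5 fold. Leaving out 1 array of the groups compared gave 0 to 27 for GA 3 days against Sham-GA 3 days, 0 to 24 for GA 3 days against GA 1 day, 1 to 4 for GA 7 days against GA 1 day, 0 to 1 for Sham-GA 7 days against Sham-GA 1 day, and 0 in every other comparison. The cause of these shifts was not tested. Of the genes that passed, or changed at least 1.5 fold in the comparisons of GA with Sham-GA at 3 and 7 days and of GA 3 and 7 days with GA 1 day, none of 1706 values under alternatives changed sign; the smaller differences of other members did in part, as when the number higher on day 1 went from 10 to 29. Samples of the same number share only the number, since in no comparison did every pair's deviations correlate over 0.1 (-0.22, -0.72 and -0.56 for GA 3 days against Sham-GA 3 days). With a replicate block 12 passed for GA 3 days against GA 1 day, 4 for GA 7 days against GA 1 day, 1 for Sham-GA 7 days against Sham-GA 1 day and 0 in the other comparisons. The 12 genes with a mean within the range of the olfactory receptor genes, and groups within it, have little signal over background, which limits what can be seen of their changes.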
